A study of Mus musculus with 10 samples.

Results

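The expression of 10 genes that mark astrocytes without being tied to their reactive state was followed in mouse motor cortex: Aldh1l1, Aldoc, S100b, Sox9, Fgfr3, Slc4a4, Acsbg1, Ntsr2, Slc6a11 and Id4. They were chosen by name, 10 of the 35275 genes of the expression table, and each matched 1 row. RNA came from C57BL/6 mice at postnatal day 22, from 5 wild-type mice (WT) and 5 mice in which the gene of membralin was deleted conditionally in astrocytes (KO). The promoter that drives the deletion is not given in the sources used here, and the 5 libraries of each genotype are biological replicates by the series' description. Values are FPKM, fragments scaled by gene length and by library depth, so levels of different genes compare only as far as the gene lengths used hold. The libraries held between 22793058 and 28827871 fragments.

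Tmem259, the gene of membralin and the check of the labels, lay between 23.8 and 32.4 FPKM in WT and between 16.9 and 26.2 FPKM in 4 KO libraries. It was highest of all 10 libraries, at 34.4 FPKM, in the library labelled KO3, so the targeted gene goes against that label. Over all libraries Tmem259 did not pass between KO and WT (log2 fold change -0.27, SE 0.16, limma adjusted p = 0.275). The deletion is in astrocytes and the RNA is of whole tissue, so this level is a limited check. Gfap, a filament of reactive astrocytes, was 106 FPKM in the library labelled KO3 and between 426 and 673 FPKM in the other KO libraries, against 79.4 to 114 FPKM in WT. The differences of the 10 genes are therefore given with and without the library labelled KO3. KO5, at 26.2 FPKM of Tmem259, lay above WT1, WT2 and WT3, so the targeted gene does not separate KO5 from WT either, while its Gfap was 470 FPKM. Transcripts of Y-linked genes were present in WT4, WT5, KO4 and KO5 and absent in the other 6 libraries, so this split is the same in both genotypes. Omp, a marker of the olfactory bulb, stayed at or below 0.41 FPKM in 4 libraries (WT1, WT2, WT5, KO5), and the remaining 6 had 2.95 to 10.5 FPKM.

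Astrocytes take up transmitters, buffer ions and pH, supply metabolic substrates to neurons and cover synapses and vessels with their processes. Their fate is set by transcription factors such as SOX9 and the nuclear factor I (NFI) proteins, and the mature cell carries a set of enzymes, receptors and transporters that neurons largely lack. When tissue is injured or inflamed astrocytes become reactive and make more of filaments such as GFAP and vimentin. Identity genes are commonly used to count or purify astrocytes because they are less dependent on that state.

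None of the 10 genes passed the test between KO and WT (limma, adjusted p under 0.05 over all 14497 genes tested), where 13.3% of all genes tested did. At an unadjusted p under 0.05 there was 1, Sox9, where 32.8% of all genes had such a p, and a count-based fit with limma voom called 0. The median log2 fold change of the 10 genes was 0.08, and that of all genes tested was 0.08. The lowest was -0.04, for Acsbg1 and Aldoc, and the highest 0.33, for Sox9. The difference lay within 0.2 of 0 for 90% of the 10 genes and for 71.5% of all genes. The WT and KO groups overlapped for every one of the 10, and they did not overlap for 7.55% of all genes. With 10 genes, a count of 0 is near that share and near the 13.3% called, so neither sets the 10 apart. Without the library labelled KO3 the median of the 10 was 0.08, and Sox9 alone passed (limma), where 26.0% of all genes did and 19.6% were called higher. The values are of whole tissue, in which fewer astrocytes and less RNA per astrocyte cannot be told apart.

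**Figure D1:**
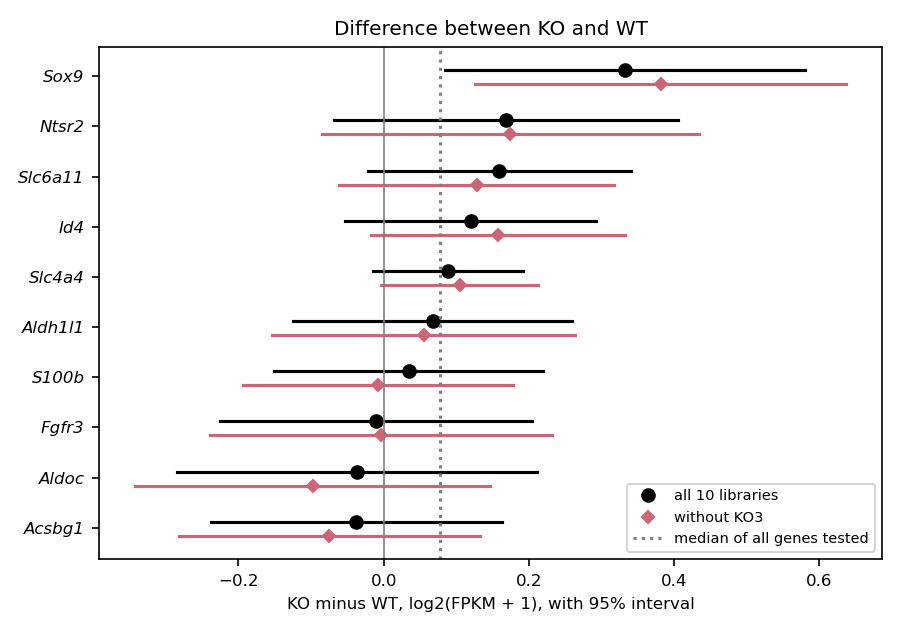
Difference between KO and WT on the log2(FPKM + 1) scale (x axis) for each of the 10 genes (y axis), with 95% intervals from limma, for all 10 libraries (black circles) and without the library labelled KO3 (red diamonds). The dotted line is the median of all genes tested, 0.08, and with all libraries the interval of Sox9 alone lies to the right of 0.

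The 10 genes spanned a wide range of levels. Their order rests on the gene lengths of the deposited table and was not recomputed with others. For Ntsr2 (1547 bases), Id4 (1660) and Fgfr3 (4245) these are well below the 3120, 3849 and 7158 exonic bases of GENCODE M21. They are also shorter for Slc4a4 (7931 against 10815), Slc6a11 (4066 against 5050), Acsbg1 (2880 against 3604), Aldoc (2786 against 3263) and Aldh1l1 (4175 against 4516). The lengths of S100b and Sox9 are equal to those of GENCODE M21. Aldoc was highest, with a mean of 284 FPKM over the 10 libraries, and Sox9 lowest, with 8.65 FPKM. Between them stood Ntsr2 at 61.5, Acsbg1 at 56.2, Slc6a11 at 55.7, Slc4a4 at 35.1, S100b at 32.0, Id4 at 31.1, Fgfr3 at 30.8 and Aldh1l1 at 24.0 FPKM. Aldoc exceeded Ntsr2 in 10 of 10 libraries and Aldh1l1 exceeded Sox9 in 10 of 10, with no overlap of ranges in either case. Slc6a11 also exceeded Slc4a4 in 10 of 10 libraries without overlap. Neighbours within the middle groups did not separate: Acsbg1 exceeded Slc6a11 in 5 of 10 libraries, S100b exceeded Id4 in 5 and Id4 exceeded Fgfr3 in 6. Fgfr3 exceeded Aldh1l1 in 10 of 10 libraries although their ranges over the libraries overlapped. The least covered value, Sox9 in the shallowest case, still rested on 644 fragments, for which counting alone gives an error of 3.94%.

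**Figure D2:**
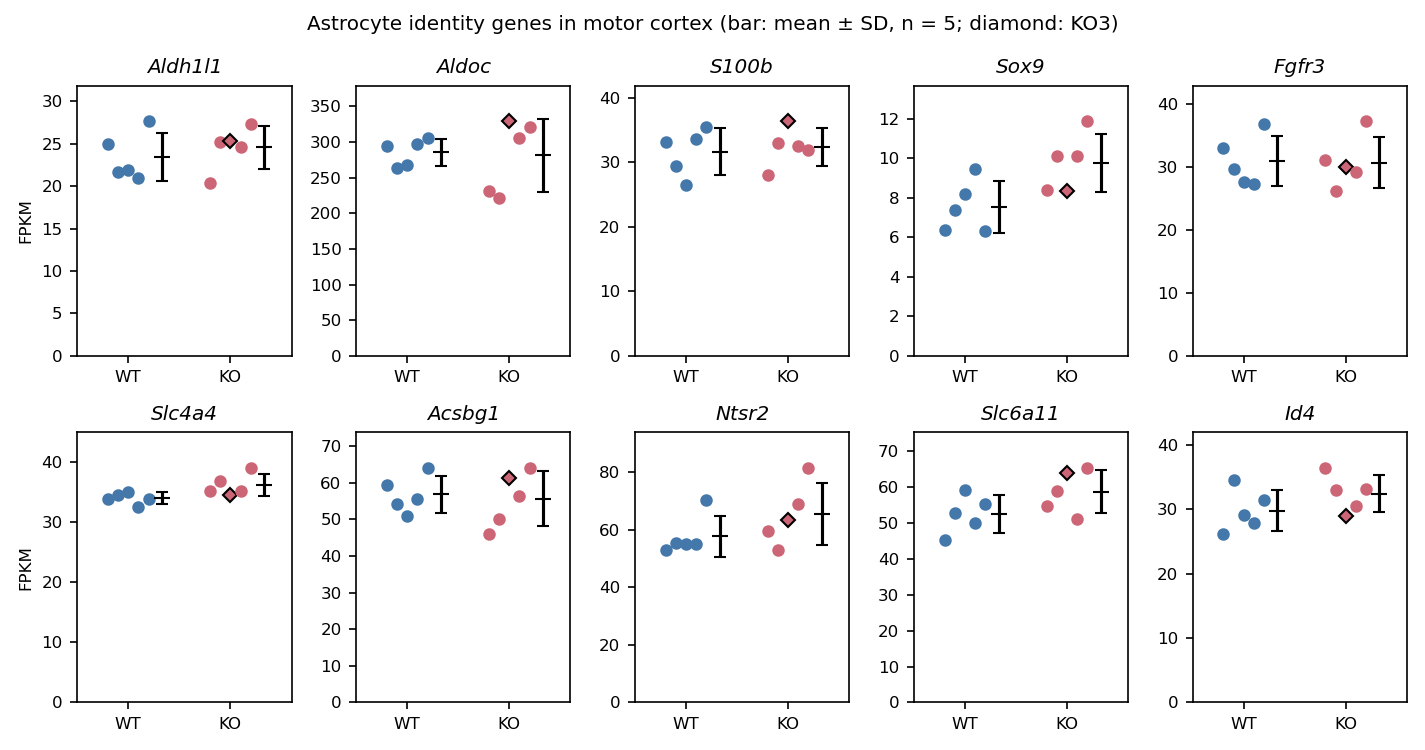
FPKM (y axis, from 0) of each of the 10 genes in the 5 WT (blue) and 5 KO (red) libraries, with group means ± SD (black, n = 5). The diamond is the library labelled KO3, and the groups overlap in each panel.

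Promoter windows are shown for Aldoc and Acsbg1, whose levels ran most closely together over the libraries, and for Id4, which had the lowest Pearson r with Aldoc. They are RefSeq windows of build GRCm38.p6, from 250 bases before to 50 bases after the annotated start, written 5′ to 3′ on the gene's own strand. Capitals mark TTGGC and its complement GCCAA, the half-site bound by NFI factors.
Aldoc, chr11:78322823-78323122, plus strand: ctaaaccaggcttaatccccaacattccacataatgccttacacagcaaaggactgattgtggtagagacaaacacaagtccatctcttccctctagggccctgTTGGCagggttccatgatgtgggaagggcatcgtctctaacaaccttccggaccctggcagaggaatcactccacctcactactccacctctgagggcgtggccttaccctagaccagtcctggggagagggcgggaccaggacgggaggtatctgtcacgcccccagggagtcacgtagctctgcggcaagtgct
Acsbg1, chr9:54661836-54662135, minus strand: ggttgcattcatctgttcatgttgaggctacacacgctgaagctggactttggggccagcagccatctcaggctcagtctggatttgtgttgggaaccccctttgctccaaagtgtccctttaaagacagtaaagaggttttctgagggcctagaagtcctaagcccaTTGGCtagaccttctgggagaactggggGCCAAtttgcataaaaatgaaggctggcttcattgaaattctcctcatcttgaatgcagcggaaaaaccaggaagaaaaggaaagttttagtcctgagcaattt
Id4, chr13:48260866-48261165, plus strand: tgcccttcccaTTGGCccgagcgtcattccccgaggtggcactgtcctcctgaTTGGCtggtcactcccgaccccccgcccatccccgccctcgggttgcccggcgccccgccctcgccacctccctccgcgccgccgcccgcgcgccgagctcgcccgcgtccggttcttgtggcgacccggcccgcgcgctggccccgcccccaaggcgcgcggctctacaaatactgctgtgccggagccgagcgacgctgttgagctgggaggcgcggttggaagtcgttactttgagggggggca
Aldoc has another RefSeq window, chr11:78323948-78324247, with 53.3% G and C, 3 CG pairs and no TTGGC on either strand. The printed windows of Aldoc and Acsbg1 held 56.3% and 47.0% G and C, near the median of 52.7% over all 32851 RefSeq windows, and 8 and 2 CG pairs. The Id4 window held 73.3% and 39 CG pairs, more CG pairs than 95.6% of all windows. TTGGC was present on either strand at 1 place in the printed Aldoc window and at 2 places each in those of Acsbg1 and Id4. Windows matched 9 of the 10 genes, Sox9 being the other, with 12 windows in all. TTGGC on either strand was in 7 of these 12 windows, or 58.3%, and in 46.7% of all windows of that length. ACAATG and ACAAAG, short forms of the SOX motif searched on both strands, were in 0 of the 12 and in 12.6% and 18.7% of all windows. GGGCGG, the GC box on either strand, was in 7 of the 12 windows and in 35.7% of all.

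None of the metabolic genes of the set passed, and their intervals spanned 0. Aldh1l1 (ENSMUSG00000030088, chromosome 6, 90486427 to 90600203, plus strand, mm10) encodes a folate enzyme that oxidizes formyl-tetrahydrofolate and is a standard marker of all astrocytes. It measured 24.97, 21.6, 21.9, 21.0 and 27.6 FPKM in WT1 to WT5 and 20.4, 25.2, 25.3, 24.6 and 27.3 FPKM in KO1 to KO5. The KO values lay among the WT values, apart from KO1, which was the lowest of the 10. The means were 23.4 ± 2.81 and 24.6 ± 2.53 FPKM (SD, n = 5 each; log2 fold change 0.07, SE 0.09, limma adjusted p = 0.630), with a 95% interval from -0.12 to 0.26. Leaving out KO3 gave Aldh1l1 0.05 (limma adjusted p = 0.706). Aldoc (ENSMUSG00000017390, chromosome 11, 78322968 to 78327781, plus strand) encodes the brain aldolase of glycolysis. It measured 294, 263, 268, 297 and 306 FPKM in WT1 to WT5 and 231, 222, 329, 306 and 321 FPKM in KO1 to KO5. KO1 and KO2 lay below every WT library and KO3 and KO5 above every WT library. The KO spread was correspondingly wide, with a coefficient of variation of 18.2% against 6.68% in WT, around nearly equal means of 282 ± 51.3 and 286 ± 19.1 FPKM (SD, n = 5 each; limma adjusted p = 0.850). Its log2 fold change was -0.04, and -0.10 with KO3 left out (limma adjusted p = 0.549). Acsbg1 (ENSMUSG00000032281, chromosome 9, 54604877 to 54661870, minus strand) encodes an acyl-CoA synthetase that activates long-chain fatty acids. It measured 59.4, 54.3, 50.8, 55.7 and 64.1 FPKM in WT1 to WT5 and 46.0, 50.2, 61.4, 56.4 and 64.1 FPKM in KO1 to KO5. Again KO1 and KO2 lay below every WT library. The log2 fold change was -0.04 (SE 0.09, 95% interval from -0.24 to 0.16, limma adjusted p = 0.808) and became -0.08 with KO3 left out (limma adjusted p = 0.590).

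S100b (ENSMUSG00000033208, chromosome 10, 76253853 to 76261159, plus strand) encodes a calcium-binding protein that astrocytes also release and that oligodendrocyte cells share. It measured 33.2, 29.4, 26.5, 33.6 and 35.4 FPKM in WT1 to WT5 and 28.0, 32.97, 36.4, 32.6 and 31.9 FPKM in KO1 to KO5. The lowest value was that of WT3 and the highest that of the library labelled KO3, and the groups overlapped. The log2 fold change was 0.03 (SE 0.09, 95% interval from -0.15 to 0.22, limma adjusted p = 0.810). It was -0.01 without the library labelled KO3 and -0.06 with median-of-ratios scaling.

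Among the transcriptional regulators Sox9 had the widest difference of the set, whereas Id4, at 0.12, lay below Ntsr2 (0.17) and Slc6a11 (0.16). Sox9 (ENSMUSG00000000567, chromosome 11, 112782224 to 112787760, plus strand) encodes the factor that starts the glial programme and stays on in adult astrocytes. It measured 6.37, 7.37, 8.19, 9.46 and 6.34 FPKM in WT1 to WT5 and 8.37, 10.1, 8.32, 10.1 and 11.9 FPKM in KO1 to KO5. All 5 KO libraries lay above the WT mean and 3 lay above every WT library, while WT4 lay above KO1 and KO3. The means were 7.55 ± 1.32 and 9.75 ± 1.47 FPKM (SD, n = 5 each), a 1.29-fold difference that did not pass over all genes (log2 fold change 0.33, SE 0.11, 95% interval from 0.09 to 0.58, limma adjusted p = 0.0698). An exact two-sided permutation of this gene alone gave p = 0.0397, not adjusted. Its log2 fold change exceeded that of 91.8% of all genes tested. With the library labelled KO3 left out, KO averaged 10.1 ± 1.43 FPKM (SD, n = 4), and at 0.38 on the log2 scale Sox9 passed (limma adjusted p = 0.0331). The Sox9 log2 fold change also passed without WT4, at 0.41 (limma adjusted p = 0.0431). Without KO5 the Sox9 log2 fold change was 0.27 (limma adjusted p = 0.141). With median-of-ratios scaling Sox9 stood at 0.24 (limma adjusted p = 0.156), and over all alternatives the adjusted p ranged from 0.0125 to 0.277. Id4 (ENSMUSG00000021379, chromosome 13, 48261427 to 48264036, plus strand) encodes an inhibitor of basic helix-loop-helix factors. It measured 26.1, 34.5, 29.1, 28.0 and 31.5 FPKM in WT1 to WT5 and 36.5, 33.02, 29.1, 30.5 and 33.2 FPKM in KO1 to KO5. KO1 was the highest and WT1 the lowest, and the remaining values overlapped. The log2 fold change was 0.12 (SE 0.08, 95% interval from -0.05 to 0.29, limma adjusted p = 0.314). Leaving out KO3 gave Id4 0.16 (limma adjusted p = 0.165).

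The receptors did not pass either. Fgfr3 (ENSMUSG00000054252, chromosome 5, 33721724 to 33737068, plus strand) encodes a fibroblast growth factor receptor carried by astrocytes and their precursors. It measured 32.99, 29.7, 27.6, 27.3 and 36.8 FPKM in WT1 to WT5 and 31.0, 26.1, 29.9, 29.1 and 37.2 FPKM in KO1 to KO5. WT5 and KO5 were the highest of their groups and nearly equal. Its log2 fold change was -0.01 (SE 0.10, 95% interval from -0.22 to 0.20, limma adjusted p = 0.953), and -0.0037 with KO3 left out. Fgfr3 ran against the olfactory bulb markers (Omp, Eomes, Doc2g and Cdhr1) over the 10 libraries, with Pearson r of -0.72 (permutation p = 0.0215, 0.272 after adjustment over 30 relations) and Spearman rho of -0.60 (permutation p = 0.0742). Pearson r was -0.58 without the 2 libraries farthest from the median of those markers, and -0.91 for deviations from the group means. It was -0.74 without KO3 and -0.67 in the 6 libraries without Y-linked transcripts (the 4 with them are too few). A fit with those bulb markers as a covariate gave 0.23 for Fgfr3 (limma adjusted p = 0.105). Ntsr2 (ENSMUSG00000020591, chromosome 12, 16653470 to 16660236, plus strand) encodes a low-affinity neurotensin receptor that is abundant in astrocytes. It measured 53.0, 55.2, 55.0, 54.9 and 70.4 FPKM in WT1 to WT5 and 59.7, 52.9, 63.4, 68.9 and 81.5 FPKM in KO1 to KO5. WT5 stood apart from 4 closely spaced WT libraries, and KO5 was the highest of all. The log2 fold change was 0.17 (SE 0.11, 95% interval from -0.07 to 0.40, limma adjusted p = 0.303). It was 0.17 without KO3 (limma adjusted p = 0.299), 0.09 without KO5, 0.24 without WT5 and 0.36 with the bulb markers as a covariate (limma adjusted p = 0.105).

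Neither transporter passed, with both means higher in KO. Slc4a4 (ENSMUSG00000060961, chromosome 5, 88886818 to 89239653, plus strand) encodes the electrogenic sodium bicarbonate cotransporter by which astrocytes answer extracellular pH. It measured 33.9, 34.6, 35.1, 32.5 and 33.8 FPKM in WT1 to WT5 and 35.2, 36.9, 34.6, 35.3 and 39.1 FPKM in KO1 to KO5. KO1, KO2, KO4 and KO5 lay above every WT library, a pattern that 21.5% of all genes showed in 4 or more KO libraries, and the library labelled KO3 lay within the WT range. The WT values were the tightest of the set, with a coefficient of variation of 2.88%. The log2 fold change was 0.09 (SE 0.05, 95% interval from -0.01 to 0.19, limma adjusted p = 0.212). An exact two-sided permutation of this gene alone gave p = 0.0238, not adjusted. It was 0.10 without the library labelled KO3 (limma adjusted p = 0.137; exact permutation p = 0.00794, the smallest possible and not adjusted) and -0.01 with median-of-ratios scaling. Slc6a11 (ENSMUSG00000030307, chromosome 6, 114131241 to 114249886, plus strand) encodes GAT-3, the astrocytic transporter of the transmitter GABA. It measured 45.3, 52.9, 59.2, 50.03 and 55.2 FPKM in WT1 to WT5 and 54.7, 58.9, 64.0, 51.1 and 65.4 FPKM in KO1 to KO5. KO3 and KO5 exceeded every WT library and the other KO libraries lay within the WT range. The log2 fold change was 0.16 (SE 0.08, 95% interval from -0.02 to 0.34, limma adjusted p = 0.205), and 0.13 with KO3 left out (limma adjusted p = 0.297).

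The direction of several of these small differences rested on scaling. The authors' FPKM gave 7 of 10 genes a log2 fold change above 0, as for 69.5% of all genes tested, and 1417 genes were called higher against 509 lower. With median-of-ratios scaling 4 of the 10 were above 0, the median of the 10 was -0.02, and the split over all genes was 608 higher (4.19%) against 945 lower (6.52%). Aldh1l1, S100b and Slc4a4 changed sign under that scaling, while Sox9, Ntsr2, Slc6a11 and Id4 were above 0 under all 33 alternatives. Whether the counting used strand is not given in the sources used here, so fragments of overlapping genes may be shared. Aldh1l1 overlaps the antisense Gm15756 over 499 exonic bases, where that gene was at most 0.42 FPKM, and Id4 overlaps A330033J07Rik over 82, at most 0.35 FPKM. Aldh1l1 also overlaps Gm45901 on the same strand over 105 exonic bases, and Id4 overlaps Gm49291 on the opposite strand over 171. Neither Gm45901 nor Gm49291 has a level here. Fgfr3 overlaps G630022F23Rik on the opposite strand over 998 exonic bases (GENCODE M21), a gene not analysed here.

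The levels of the 10 genes varied between mice within each genotype. KO5 had the highest value of 6 of the 10 genes and lay above the mean of all libraries for 10 of 10. The share of all genes that were highest in KO5 was not computed, so this count is not shown to be particular to the 10. The lowest values were spread over both genotypes, with 5 of the 10 in KO1 or KO2 and 5 in WT libraries. With each gene weighted equally, as a mean z-score, KO5 was highest at 1.30 and WT3 lowest at -0.56. The summed level of the 10 genes, of which Aldoc makes up the largest share, was 551 FPKM in KO1, 548 in KO2, 682 in KO3, 644 in KO4 and 712 in KO5. In WT1 to WT5 it was 610, 583, 581, 609 and 667 FPKM, all within the KO range. KO1 and KO2 had Omp at 5.92 and 10.5 FPKM and KO5 had 0.41 FPKM, but the library labelled KO3 and KO4, with 7.95 and 8.89 FPKM, were not low for the sum. The part of bulb tissue in these sums was not tested.

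**Figure D3:**
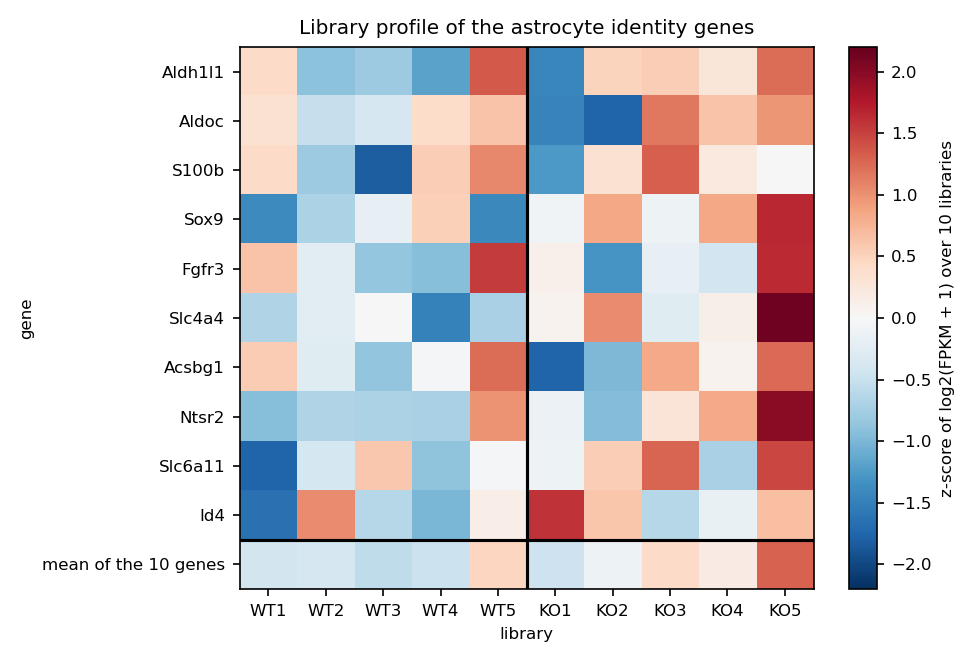
Standardized log2(FPKM + 1), as a z-score over the 10 libraries (colour), for each of the 10 genes (rows) and for their mean (bottom row) in each library (columns, WT left of the line and KO right of it). KO5 is above the mean in every row, and KO1 and KO2 are the lowest libraries for Aldoc and Acsbg1.

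Among the 45 pairs of these genes, Aldoc and Acsbg1 ran most closely together over the 10 libraries. Their Pearson r was 0.88 (permutation p = 0.00065, 0.0293 after adjustment over 45 pairs) and their Spearman rho 0.90 (permutation p = 0.00078, 0.0351 after adjustment). Pearson r was 0.81 without the 2 libraries farthest from the median of Aldoc, and 0.88 for deviations from the group means. It was 0.88 without KO3 and 0.90 in the 6 libraries without Y-linked transcripts. No other pair passed the adjustment. Aldh1l1 and Acsbg1 followed with Pearson r of 0.77 (permutation p = 0.0117, 0.232 adjusted) and Spearman rho of 0.76 (permutation p = 0.0154, 0.333 adjusted). The least alike by Pearson r were Aldoc and Id4, with -0.53 (permutation p = 0.118, 0.358 adjusted) and Spearman rho of -0.37 (permutation p = 0.295, 0.631 adjusted). Their Pearson r was -0.12 without the 2 libraries farthest from the median of Aldoc. By Spearman rho S100b and Slc4a4 were the least alike, with -0.56 (permutation p = 0.0967, 0.357 adjusted). The pairs share their libraries, so they are not independent of each other. Over the same libraries the protein-coding autosomal genes most like the mean profile of the 10, by Pearson r, were Pgm2 (0.92), Tnnt2 (0.91), Ssh3 (0.91), Snf8 (0.90) and Dok7 (0.90), and 0.49% of all tested genes had r above 0.8. Of the further astrocyte genes, Atp1b2, a sodium pump subunit, and Kcnj10, the Kir4.1 potassium channel, were most like it, with r of 0.84 and 0.82. The list as a whole did not follow that profile. Slc1a2 had r of 0.24, Glul 0.12 and Slc1a3 0.04, and Nfix, Fgfr2 and Nfib ran against it with -0.39, -0.46 and -0.72.

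A wider list of 60 further astrocyte genes had 4 called higher and 4 called lower in KO, with 52 not called and a median log2 fold change of 0.01. Over all genes tested 9.77% were called higher and 3.51% lower. The 4 that rose were Sox2, Fabp7, Aqp4 and Mlc1, and the 4 that fell were Dio2, Grm3, Lhx2 and Nfix. Sox2, a progenitor factor that astrocytes keep, averaged 14.01 ± 1.08 FPKM in the WT mice and 17.5 ± 0.85 FPKM in the KO mice (SD, n = 5 each; log2 fold change 0.30, SE 0.06, limma adjusted p = 0.0186). Fabp7, a lipid-binding protein of immature glia that is also high in the olfactory bulb, averaged 60.1 ± 14.7 FPKM in the WT mice and 121 ± 45.7 FPKM in the KO mice (SD, n = 5 each), with limma adjusted p = 0.0273. With the bulb markers as a covariate the Fabp7 log2 fold change went from 0.95 to 0.39 (limma adjusted p = 0.216), and to 0.43 without KO3 as well (limma adjusted p = 0.117). In that covariate fit with all libraries no gene of the table passed, and 3382 had an unadjusted p under 0.05. Leaving out KO3 alone gave 0.33 for Sox2 and 0.98 for Fabp7, both called. Aqp4, the water channel of endfeet, had a log2 fold change of 0.67 with all libraries and 0.86 without the library labelled KO3, which was at 27.2 FPKM. Without that library 9 of the 60 were called higher and 10 lower (limma), where 19.6% of all genes were called higher and 924 of 14522 lower.

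The pan-reactive astrocyte genes, 13 that rise in many forms of injury, moved where the identity genes did not pass; the difference between the lists was not tested. Of the 11 tested, 9 rose and none fell, where 9.77% of all genes were called higher. Their median log2 fold change was 0.87 against 0.08 for the identity genes. That reactive list was described in earlier results of these libraries and is given here only as the contrast. Gfap rose by 1.91 (SE 0.38, limma adjusted p = 0.0186) with all libraries. Its 2.35 without the library labelled KO3 is no further evidence, since that library was set apart in part by its low Gfap. Vim, the other filament, averaged 13.5 ± 1.52 FPKM in the WT mice and 42.7 ± 19.8 FPKM in the KO mice (SD, n = 5 each), with limma adjusted p = 0.0186. Cd44, a hyaluronan receptor, rose by 0.87 (SE 0.15, limma adjusted p = 0.0180). With KO3 left out Vim rose by 1.76 and Cd44 by 1.02, and KO3 was the lowest KO library for both (16.2 and 1.015 FPKM). Sox9 was the identity gene that ran most like Gfap over the libraries, with Pearson r of 0.73 (permutation p = 0.0188, 0.272 after adjustment over 30 relations) and Spearman rho of 0.82 (permutation p = 0.0059, 0.177 adjusted). Pearson r was 0.58 without the 2 libraries farthest from the median of Gfap and 0.43 for deviations from the group means. It was 0.75 without KO3 and 0.66 in the 6 libraries without Y-linked transcripts.

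**Figure D4:**
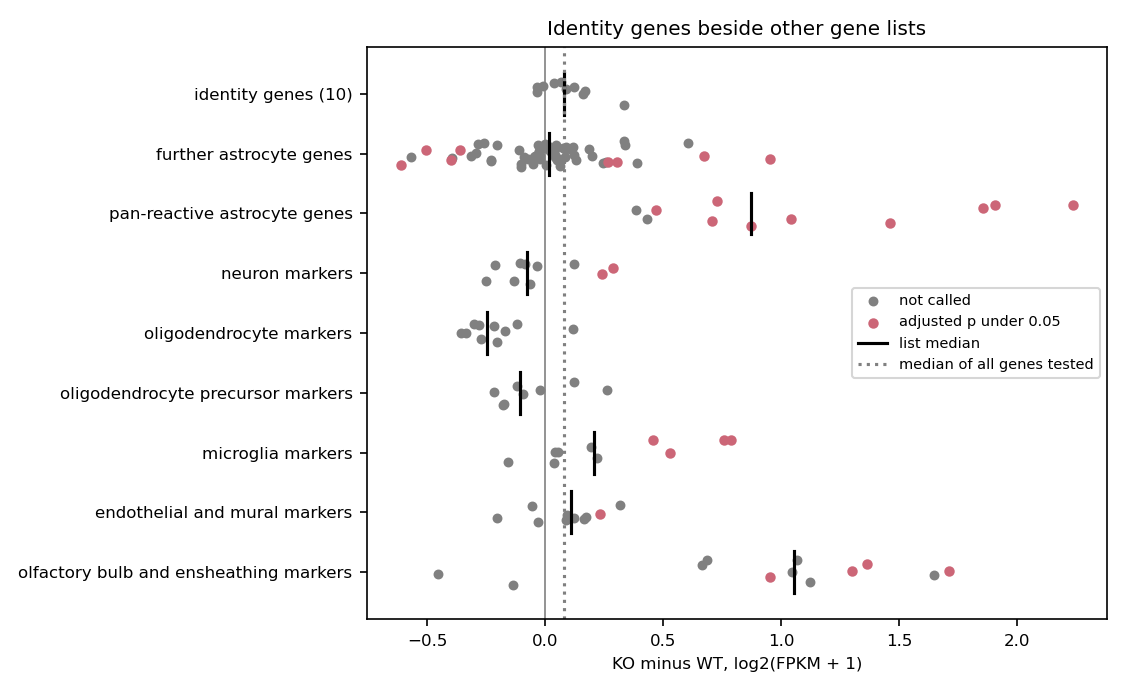
Difference between KO and WT on the log2(FPKM + 1) scale (x axis) of each tested gene of 9 lists (rows), in red where the adjusted p was under 0.05 in limma, with the list median as a black bar. The 10 identity genes have no red point and a median of 0.08, and the pan-reactive list has 9 red points and a median of 0.87.

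Markers of other cells were present in the tissue. Their counts stand beside 9.77% of all genes called higher, 3.51% called lower and 32.8% with an unadjusted p under 0.05 (limma). Without the library labelled KO3, 19.6% of all genes were called higher and 924 of 14522 lower. With median-of-ratios scaling 4.19% were called higher and 6.52% lower. Neuron markers had a median log2 fold change of -0.08, with Eno2 and Tubb3 the 2 of 10 called higher; with median-of-ratios scaling 0 were higher and 2 lower. Oligodendrocyte markers had a median of -0.25 with 0 of 10 called by limma, 7 at an unadjusted p under 0.05 and 2 lower by voom. There 6 of 10 were called lower without the library labelled KO3 and 5 with median-of-ratios scaling. Precursor markers had a median of -0.11 with 0 of 8 called by limma or voom and 4 at an unadjusted p under 0.05. Microglia markers had a median of 0.21, with Aif1, C1qa, C1qb and Sall1 the 4 of 10 called higher (6 without the library labelled KO3, 2 with median-of-ratios scaling). Of the 10 endothelial and mural markers Itm2a rose. Markers of the olfactory bulb and its glia had a median of 1.06, with 4 of 12 called higher, Th, Npy, Sp8 and Fabp7. Of the 7 ependyma and choroid plexus markers Foxj1 rose, and of 5 proliferation genes Mcm2, Mki67, Pcna and Top2a did. With median-of-ratios scaling 0 of the ependyma and choroid plexus markers and 1 of the proliferation genes were higher, and of the endothelial and mural markers 0 were higher and 1 lower. The summed level of the bulb markers was between 133 and 194 FPKM in WT and between 241 and 383 FPKM in KO. None of the 12 was at 0 throughout. In KO5 this sum held Npy at 175 FPKM and Fabp7 at 68.97 FPKM, against Omp at 0.41 FPKM. The mean log2 level of Omp, Eomes, Doc2g and Cdhr1 overlapped between the groups, with 1.13 in KO5 against 2.395 in WT3 and 2.03 in WT4. The part of the bulb markers in the results of the identity genes was not tested beyond the covariate and the correlations over the libraries. The summed neuron markers overlapped between the groups, with 1860 to 2073 FPKM in WT and 1855 to 2061 FPKM in KO.

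Except for the folate enzymes around Aldh1l1, the families and pathways around the identity genes held genes that passed by limma with all libraries. Among 9 tested glycolytic enzymes next to Aldoc, 3 rose, Aldoa, Pfkp and Pgk1, and none fell, but 0 were called with median-of-ratios scaling (limma). Of 23 folate and one-carbon enzymes around Aldh1l1 none passed by limma and 1 passed by voom. An unadjusted p under 0.05 was found for 7 of the 23, where 32.8% of all genes had one. Without the library labelled KO3, 5 of the 23 rose, where 19.6% of all genes did. Atic, Dld and Aldh1l2 had the lowest p (limma adjusted p = 0.0525, 0.0665 and 0.0692). Of 11 genes of fatty acid activation and binding around Acsbg1, Fabp7 alone rose and none fell. Of 10 S100 genes besides S100b, S100a4, S100a6 and S100a11 rose, with a list median of 0.43. Of 14 SOX and NFI factors Sox1, Sox2 and Sox11 rose and Nfic and Nfix fell. Nfic averaged 29.4 ± 3.04 FPKM in the WT mice and 21.6 ± 3.21 FPKM in the KO mice (SD, n = 5 each), with limma adjusted p = 0.0198. Of 32 genes of ID proteins, their partners and bone morphogenetic protein and Notch signalling, 7 rose: the ligands Bmp6 and Bmp7, the receptors Bmpr1a and Notch2, the mediator Smad5, and Id1 and Id3. Neurod1, a neuronal helix-loop-helix factor, fell by 0.54 (SE 0.11, limma adjusted p = 0.0186). Of 25 genes of fibroblast growth factor signalling Fgfr1 rose and Fgf13, an intracellular member of that family in neurons, fell. The targets Spry1, Spry2, Spry4, Dusp6, Etv1, Etv4 and Etv5 were among those not called, with Etv5 at -0.31 (limma adjusted p = 0.0564). Leaving out KO3 gave Etv5 -0.41, which passed (limma adjusted p = 0.00125), and 6 of the 25 were then lower. Of 15 bicarbonate transporters and carbonic anhydrases Slc4a10 rose and Car4 and Car10 fell. Of 7 neurotensin and sortilin genes Sorcs1 and Sorcs2 rose and Sort1, which binds neurotensin, fell. Of 11 transporters related to Slc6a11, Slc6a7, Slc6a9 and Slc6a13 rose and none fell. With median-of-ratios scaling the calls were 1 higher for the S100 genes, 1 higher and 5 lower for fibroblast growth factor signalling, 0 higher and 3 lower for bicarbonate, 0 higher and 1 lower for neurotensin, 1 higher for the Slc6a11 relatives, and 2 higher and 3 lower for the ID, bone morphogenetic protein and Notch genes. These counts stand beside the 9.77% of all genes called higher and 3.51% called lower. With median-of-ratios scaling those shares were 4.19% and 6.52%. Without the library labelled KO3, 924 of 14522 genes were called lower.

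Aldoa, Fgfr1, Id1, Id3, Slc4a10 and Slc6a13 were the close relatives that rose; with median-of-ratios scaling Fgfr1 and Id3 alone of these passed. Aldoa, the general aldolase, averaged 710 ± 60.4 FPKM in the WT mice and 890.2 ± 95.2 FPKM in the KO mice (SD, n = 5 each; log2 fold change 0.32, limma adjusted p = 0.0419), where Aldoc had -0.04. Fgfr1 measured 15.1, 13.3, 15.6, 15.03 and 12.9 FPKM in WT1 to WT5 and 23.8, 20.5, 15.02, 24.3 and 26.8 FPKM in KO1 to KO5. Every KO library except the one labelled KO3 lay above every WT library (log2 fold change 0.56, SE 0.13, limma adjusted p = 0.0221), where Fgfr3 had -0.01. Fgfr2 had 0.04 and Fgfrl1 0.13, neither called. Id3 measured 9.36, 14.5, 12.9, 13.6 and 11.1 FPKM in WT1 to WT5 and 26.2, 21.3, 13.9, 26.7 and 24.4 FPKM in KO1 to KO5. It rose by 0.81 (SE 0.16, limma adjusted p = 0.0186) and Id1 by 0.38, whereas Id2 had 0.03 and Id4 0.12. Slc6a13, the GABA transporter GAT-2, which is high in meninges, rose by 0.54, where Slc6a11 had 0.16. Sox8 and Sox10, the SOX factors closest to Sox9 and expressed by oligodendrocyte cells, had -0.10 and -0.08, neither called.

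The difference between a relative and its identity gene was tested in 21 pairs by exact two-sided permutation of the libraries, for which the smallest p is 0.00794. After adjustment over the 21 pairs none passed at 0.05, and 6 had an unadjusted p under 0.05. The log2 fold changes of Id3 and Id4 differed by 0.69 (exact permutation p = 0.0159, 0.111 adjusted), Fgfr1 against Fgfr3 by 0.57 (exact permutation p = 0.0238, 0.125 adjusted) and Aldoa against Aldoc by 0.36 (exact permutation p = 0.0476, 0.167 adjusted). Sox8 against Sox9 differed by -0.43 (exact permutation p = 0.0159, 0.111 adjusted). The pairs were chosen after the values were seen, so their p describe these data only. The library labelled KO3 was set apart by its Tmem259 and Gfap levels. Without it 8 of the 21 pairs passed, with an exact adjusted permutation p of 0.0417 each. Among these were Aldoa with Aldoc, S100a16 with S100b, Sox8 and Sox10 with Sox9, Fgfr1 with Fgfr3, Slc6a13 with Slc6a11, and Id3 with Id4. Acsl6 and Acsbg1 (difference 0.01), Fgfr2 and Fgfr3 (0.05) and S100a1 and S100b (0.05) were nearest to each other.

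**Figure D5:**
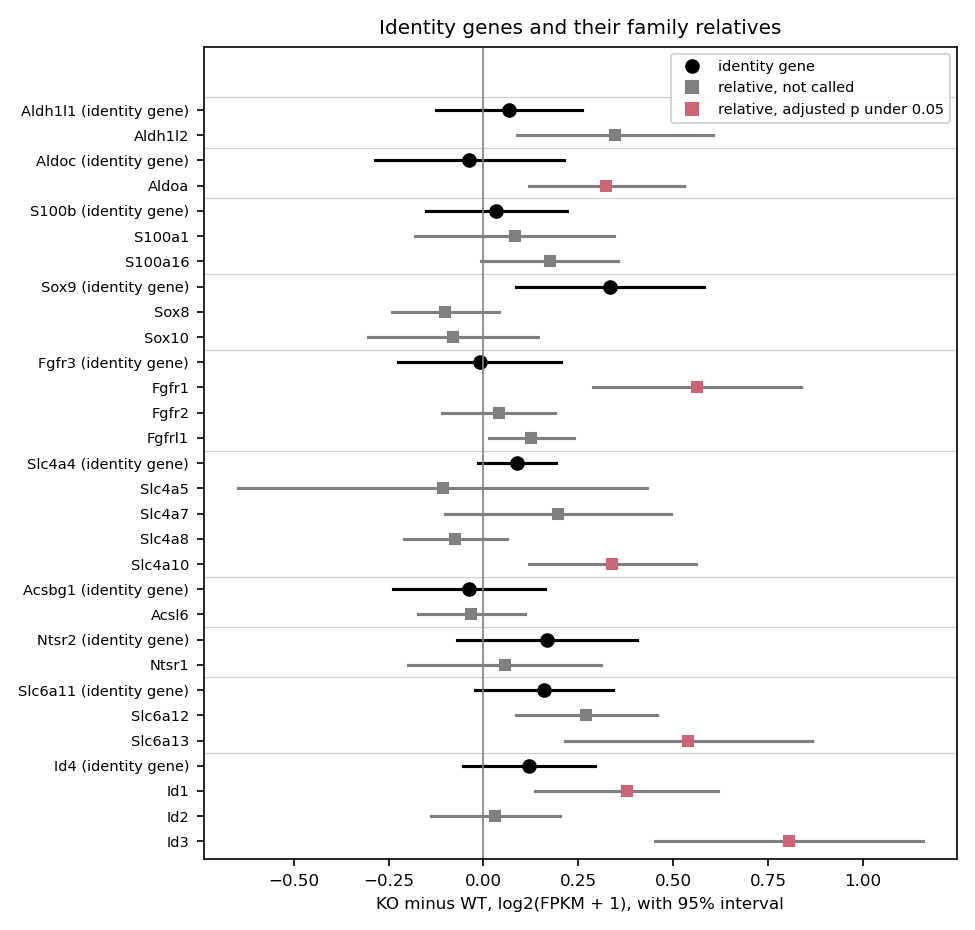
Difference between KO and WT on the log2(FPKM + 1) scale (x axis) with 95% intervals from limma, for each identity gene (black circles) and 20 family relatives (squares, red where the adjusted p was under 0.05). Fgfr1, Id1, Id3, Aldoa, Slc4a10 and Slc6a13 are red, and none of the identity genes passed.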

How the data were processed

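Per the labels' protocols, a Kurabo kit gave the motor cortex RNA and NEBNext Ultra the libraries. The authors deposited FPKM per gene and library with gene length, per the file headers. Of build and tools, mm10 and DESeq2 appear in the submitters' processing notes; the aligner, counter and annotation have no statement there or in the labels. FPKM times gene length gave whole fragments, within 0.02, in 100% of values above 0, and every pair of libraries differed by more than sampling noise (chi-square per gene at least 7.22).

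Groups were taken from sample titles. KO and WT were compared in limma 3.58.1 (R 4.3.3) on log2(FPKM + 1) with a variance trend, over genes averaging 0.5 FPKM or more, with Benjamini-Hochberg adjustment over all 14497. Fold changes understate those of low genes. Single values were tested by exact permutation, correlations by 100000 permutations. Named genes are the 10, the 3 lowest p of each list, close relatives, Gfap, Vim, Tmem259 and the 5 most alike genes; other called genes are named as members of counted lists. The 10 genes and the lists were chosen with earlier results of these data known, and the pairs of relatives after the values were seen. The result of 1 pair is not reported here. The limma step was tested on simulated data with known changes. The 33 alternatives covered pseudocount, filter, scaling, variance, weights, covariates, a count-based fit and libraries left out. Correlations without KO3 and within the libraries lacking Y-linked transcripts were added after the data were seen.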

Additional observations from a re-analysis of the deposited data

Results flagged for a closer look

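A gap to the nearest other library of more than 0.71 of the group's range marked a library as apart from its group in 14 groups out of 172; chance alone would mark about 1 in 20. The library labelled KO3 accounted for 5. Of the 20 groups of the identity genes 1 was marked, Ntsr2 in WT5 at 70.4 FPKM, against 53.0 to 55.2 FPKM in the other WT libraries. WT5 was also the highest for Nfic (34.6 FPKM), Acsl6 (37.5 FPKM) and S100a1 (53.1 FPKM) and the lowest for Slc4a7 (2.204 FPKM). The library labelled KO3 was the highest KO library for Nfic (27.2 FPKM), Etv5 (34.9 FPKM) and Car10 (35.9 FPKM), and the lowest for Pfkp (57.2 FPKM) and Sorcs1 (7.16 FPKM). KO5 was the highest for C1ql1 (12.8 FPKM) and the lowest for Fgfr2 (7.52 FPKM). WT3 was the highest for Aldh1l2 (1.18 FPKM). Acsbg2 had fragments in WT2 alone among the WT libraries, at 0.0399 FPKM.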

How the results depend on the processing

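The count of identity genes called by limma was 0 in 28 of the 33 alternatives and 1, Sox9, in 5: without WT4, without the library labelled KO3, and without the latter together with WT3, WT4 or KO1. It thus ranged from 0 to 1 with libraries left out. The count over all genes ranged from 2 (without WT1, KO2 or KO4) to 3769 (without the library labelled KO3). It was 465 with no filter, 3557 with library weights and 0 with bulb markers as a covariate, where 3382 genes had an unadjusted p under 0.05. The labels do not say that replicate numbers pair the mice, and the correlation of deviations was over 0.1 for 3 of 5 numbers (range -0.06 to 0.14), although same-numbered mice had the same state of Y-linked transcripts. With a replicate block 1271 genes and 0 identity genes passed, and with Y-linked transcripts as a factor 2060 and 0. Over the 330 refitted fold changes of the 10 genes, 295 kept their direction and side of the threshold, 5 of Sox9 passed, and 30 changed sign, none of which passed. With median-of-ratios scaling the log2 fold change was -0.0275 for Aldh1l1, -0.0613 for S100b and -0.0072 for Slc4a4; with quantile normalization the S100b log2 fold change was -0.00864; with library weights the Fgfr3 log2 fold change was 0.0133. With bulb markers as a covariate it was 0.0805 for Aldoc, 0.228 for Fgfr3 and 0.108 for Acsbg1, and without KO3 as well 0.0353, 0.222 and 0.077. With libraries left out it ranged from -0.19 to 0.0438 for Aldoc, -0.0683 to 0.0837 for S100b, -0.095 to 0.0697 for Fgfr3 and -0.16 to 0.0267 for Acsbg1. The cause of these changes was not tested.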
